A study of Mus musculus with 12 samples.

Results

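The RNA levels of 10 basement membrane genes were followed in Ocy454, a mouse cell line used as a model of osteoblasts that mature into osteocytes. The genes were taken as a list of names, with no threshold on their values, but earlier results of these data were known when they were chosen. They are 10 of the 35214 genes to which the deposited transcript reads could be assigned. They encode the collagen IV chains Col4a1 and Col4a2, the related collagens Col15a1 and Col18a1, the laminin chains Lama4, Lamb1 and Lamc1, the nidogens Nid1 and Nid2, and perlecan, Hspg2. Polyadenylated RNA was sequenced from 4 groups of 3 libraries. Cells were grown to confluence, differentiated for 5 days at a higher temperature, pretreated for 1 h with BGJ398 or its vehicle DMSO and then treated for 48 h. The DMSO group had vehicle alone, the DMSO+FGF2 group vehicle with 2 ng/mL FGF2, the BGJ398 group 200 nM BGJ398, and the BGJ398+FGF2 group both agents at the same concentrations. FGF2 is fibroblast growth factor 2, and BGJ398 inhibits the kinases of the FGF receptors. All groups came from 1 cell line in serum-containing medium, and the labels state triplicates without saying whether these were separate cultures. The p-values therefore reflect only how far libraries of a group scatter, and that scatter may be technical.

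A basement membrane is a thin sheet of matrix that lies against epithelia, vessels, muscle, fat and nerve. Laminins, which are trimers of an alpha, a beta and a gamma chain, assemble at the cell surface, collagen IV forms a second network cross-linked to itself, and nidogens and perlecan connect both. Bone matrix is dominated by fibrillar collagen I, and cells of the osteoblast lineage are not usually enclosed by such a sheet, although many mesenchymal cells make its components in culture.

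Libraries held 18951710 to 27716975 reads, of which the 10 genes together took 0.161% to 0.244%, least in the 3 DMSO+FGF2 libraries, at 0.161% to 0.169%. All 7 osteoblast and early osteocyte markers passed the filter on low counts, and their summed level was 9290 to 10000 CPM (reads scaled to library size) in the DMSO libraries and 5640 to 6880 CPM with FGF2 added, mostly from Col1a1. The sum does not stand for each marker, since Bglap, at 0.294 to 1.52 CPM, and Phex, at 0.190 to 0.700 CPM, were also near 0. Pdpn rose from 25.2 to 28.7 CPM in DMSO to 38.2 to 39.6 CPM in DMSO+FGF2, while the means of the others were lower with FGF2. Of 4 mature osteocyte markers, Sost and Mepe had 0 reads and the list summed to at most 0.313 CPM in any library. The markers of cells that are enclosed by basement membranes or produce them were near 0. The 5 endothelial markers summed to at most 0.353 CPM, with Emcn at 0. The 4 epithelial markers reached 0.957 CPM with Epcam and Krt18 at 0, the 3 Schwann cell markers 1.86 CPM with Sox10 at 0, and the 3 adipocyte markers 0.101 CPM with Adipoq and Cfd at 0. The 4 pericyte and smooth muscle markers summed to 2.72 to 4.50 CPM, and the 3 macrophage markers to at most 0.809 CPM with Adgre1 at 0. BGJ398 replicate 1, DMSO+FGF2 replicate 2 and BGJ398+FGF2 replicate 2 deviated from their group means weakly in the same direction across genes (correlations of 0.172 to 0.239), and results that change without these 3 libraries are given both ways. DMSO+FGF2 replicate 3 and BGJ398+FGF2 replicate 1, at 0.179, were kept. The 3 libraries were chosen after seeing the data and differed most from the others of their groups. Leaving them out therefore lowers the spread that the tests use.

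Col4a1 and Col4a2, whose products combine in 1 collagen IV trimer, lie head to head on chromosome 8, so that their start regions share sequence. Their RefSeq promoter windows (build GRCm38.p6, 250 bases before to 50 after the start) are shown because the levels of the 2 genes were the closest match to each other over the 12 libraries. The Col4a1 window is chr8:11312777-11313076 on the minus strand and the Col4a2 window is chr8:11312555-11312854 on the plus strand. Capitals mark the 78 bases that both windows hold, chr8:11312777-11312854, each read on its own strand. The 2 transcripts overlap there by 22 bases.
Col4a1: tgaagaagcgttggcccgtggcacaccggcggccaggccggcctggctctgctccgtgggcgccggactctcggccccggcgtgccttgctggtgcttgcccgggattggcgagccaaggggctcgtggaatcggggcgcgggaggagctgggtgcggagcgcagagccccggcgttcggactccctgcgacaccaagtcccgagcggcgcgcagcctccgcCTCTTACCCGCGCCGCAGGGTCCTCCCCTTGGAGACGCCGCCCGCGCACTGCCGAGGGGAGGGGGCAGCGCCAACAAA
Col4a2: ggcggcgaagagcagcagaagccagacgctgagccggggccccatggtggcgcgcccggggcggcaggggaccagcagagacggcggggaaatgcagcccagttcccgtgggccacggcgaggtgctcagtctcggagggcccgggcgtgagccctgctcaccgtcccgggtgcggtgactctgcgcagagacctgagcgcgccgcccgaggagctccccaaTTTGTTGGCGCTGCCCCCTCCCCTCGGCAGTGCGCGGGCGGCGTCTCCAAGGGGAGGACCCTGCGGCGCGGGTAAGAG
The shared stretch was 73.1% G and C, the Col4a1 window 74.0% and the Col4a2 window 73.7%, against a median of 52.7% over the 32851 windows of the table. Letters were searched on both strands. The shared stretch held 1 match to GGGCGG, the core of GC boxes, which 35.7% of all windows held at least once, and none to CCAAT (37.4% of windows) or TATAAA (13.6%). The whole Col4a1 window had 1 match to GGGCGG and 1 to CCAAT, and the Col4a2 window had 3 and 1. Neither window had a match to TATAAA, to the AP-1 letters TGACTCA (5.20% of windows) or to the ETS letters CCGGAAG (8.86%), and no window of the other members in the table had one either. The table held windows for 7 of the 10 genes, which leaves out Lama4, Lamc1 and Nid2.

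Levels between genes were compared as TPM, the authors' abundance per transcript length, summed over coding transcripts of at least 3000 bases. Nid2 was the most abundant, at 172 ± 4.33 TPM in DMSO (mean ± SD, n = 3, as for all TPM values of a group). Col4a1 followed at 93.1 ± 4.24 TPM, then Lamc1 at 75.0 ± 2.56 TPM and Col4a2 at 71.6 ± 2.48 TPM, whose ranges overlapped. Hspg2 stood at 48.5 ± 5.65 TPM, Col18a1 at 16.4 ± 0.776 TPM, Nid1 at 15.8 ± 0.510 TPM and Lama4 at 12.4 ± 0.645 TPM, and the ranges of Col18a1 and Nid1 overlapped. Lamb1 varied from 3.35 to 18.4 TPM among the 3 DMSO libraries and has no place in that order, and Col15a1 was lowest, at 0.278 ± 0.0118 TPM. In DMSO+FGF2, Nid2 remained the highest at 126 ± 7.53 TPM, while Col4a1, at 51.2 ± 0.578 TPM, and Lamc1, at 51.9 ± 1.69 TPM, had overlapping ranges and Col4a2, at 37.9 ± 0.563 TPM, lay below Hspg2, at 41.5 ± 2.19 TPM.

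**Figure D1:**
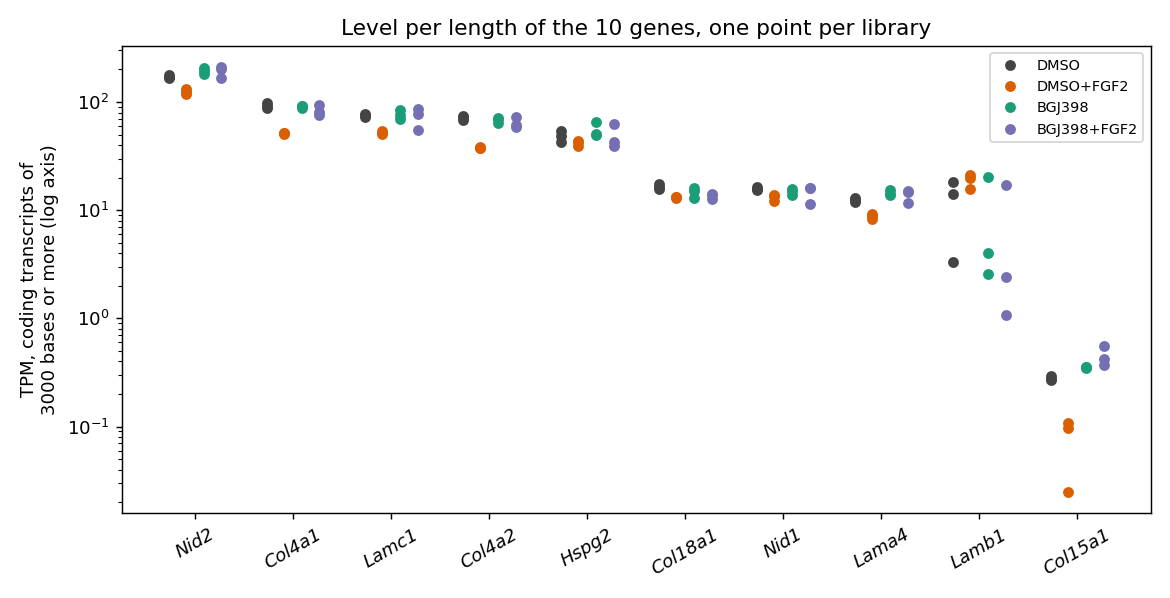
TPM of coding transcripts of 3000 bases or more (log axis) for the 10 genes, ordered by their DMSO mean, with 1 point per library and a colour per group. Nid2 is at the top in every group, Lamb1 splits into high and low libraries within 3 groups, and the DMSO+FGF2 points lie lowest for Col4a1, Col4a2, Lama4, Lamc1, Nid2 and Col15a1.

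Short transcripts weigh on such sums. A fragment of Hspg2 of 820 bases, Hspg2-202, took 2.61% of its reads but 19.4 to 47.6 TPM, and transcripts outside the long coding ones made up 33.2% to 55.0% of the summed Hspg2 TPM, against 5.57% to 11.4% for Nid2. For Lamc1 that share reached 27.4% in BGJ398+FGF2 replicate 2.

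The first comparison asked what FGF2 changed while its receptors were not inhibited. In DMSO+FGF2 against DMSO, 6 of the 10 genes fell, by edgeR's quasi-likelihood test with Benjamini-Hochberg adjustment over 12542 genes at a threshold of 0.05. The 6 were both collagen IV chains, Col15a1, Lama4, Lamc1 and Nid2. Among all genes tested 13.4% were called, 5.82% lower and 7.57% higher. The median log2 fold change of the 10 genes was −0.40, beside −0.0037 over all genes. Fewer cells that make these RNAs and less RNA per cell cannot be told apart in such bulk samples. For 8 of the 10 genes, all but Lamb1 and Hspg2, every DMSO+FGF2 library lay below every DMSO library, a pattern that 18.4% of all tested genes showed.

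**Figure D2:**
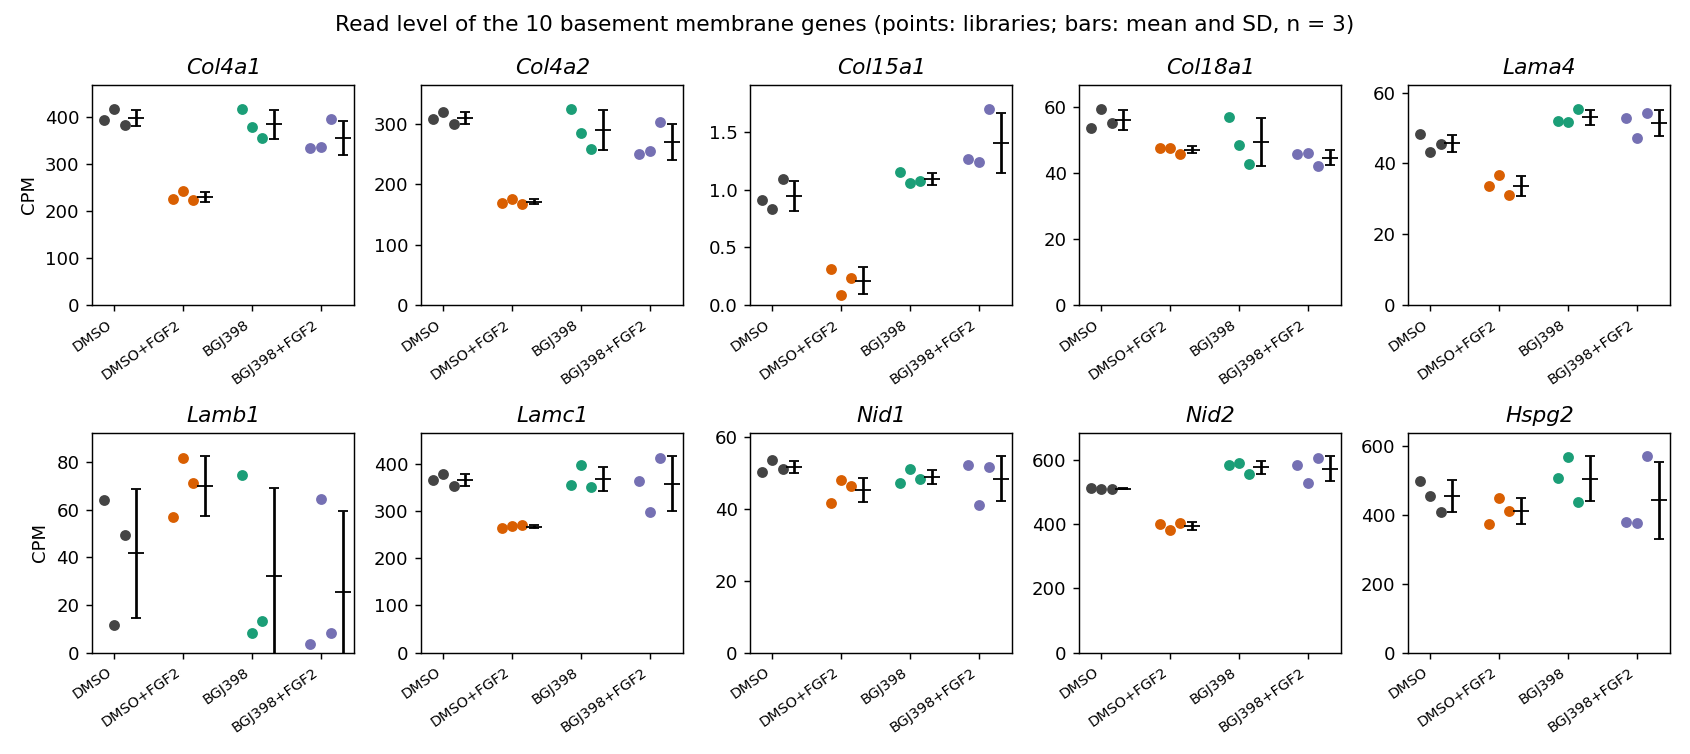
CPM of each of the 10 genes (vertical axes from 0) in the 4 groups, with 1 point per library and the mean and SD (n = 3) as bars, cut at 0 for Lamb1. The 3 DMSO+FGF2 libraries lie below the other 9 for Col4a1, Col4a2, Col15a1, Lama4, Lamc1 and Nid2, and the share of all genes that do so was not computed.

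Col4a1 encodes the chain that occurs 2 times in the common collagen IV trimer. It stood at 394, 417 and 384 CPM in the DMSO libraries and at 226, 242 and 222 CPM with FGF2. In BGJ398 it was at 418, 379 and 356 CPM and in BGJ398+FGF2 at 333, 337 and 396 CPM. The DMSO+FGF2 libraries were thus the 3 lowest of the 12, with a gap to the others, which overlapped. The log2 fold change with FGF2 in DMSO was −0.79 ± 0.08 (SE, adjusted p = 1.52e-05), a 1.73-fold lower level.

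Col4a2, its partner chain, stood at 308, 320 and 301 CPM in DMSO and at 169.7, 176 and 168 CPM in DMSO+FGF2. It was at 326, 285 and 259 CPM in BGJ398 and at 250.4, 256 and 304 CPM in BGJ398+FGF2. The groups were ordered as for Col4a1, and the log2 fold change with FGF2 in DMSO was −0.85 ± 0.09 (adjusted p = 2e-05). In every library Col4a1 exceeded Col4a2, and the ratio of their TPM ran from 1.28 to 1.39 over the 12 libraries, while Col4a1 itself ran from 50.6 to 97.4 TPM. Likeness of pattern was measured as the root mean square difference of log2 CPM, centred per gene, over the 12 libraries. It was 0.0334 between the 2 genes, and each was the nearest of the other's 12541 tested genes. Among protein-coding genes outside the 10 with a mean of at least 5 CPM, the nearest to Col4a1 were Col5a1, a fibrillar collagen V chain (0.0792), Id3, a repressor of basic helix-loop-helix factors (0.0895), and the collagen IV chain Col4a5 (0.0939). Those nearest to Col4a2 were Col5a1 (0.0874), Id3 (0.0939) and Col1a1 (0.112).

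**Figure D3:**
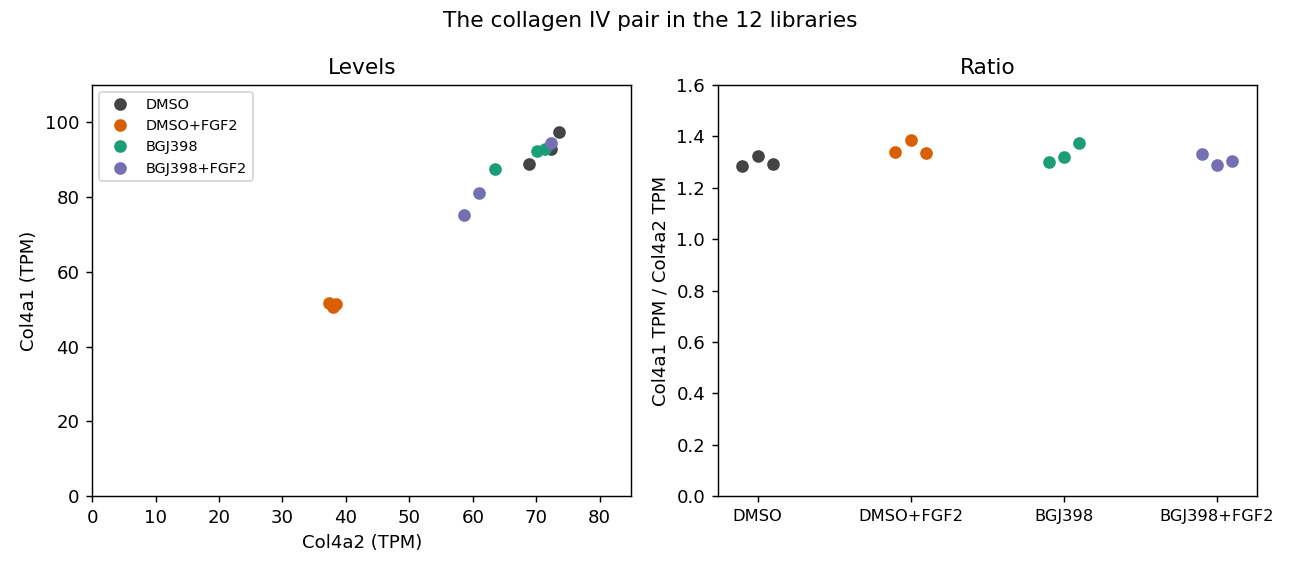
Left, Col4a1 against Col4a2 in TPM (long coding transcripts), with 1 point per library and a colour per group. Right, the ratio of both in each library, from 1.28 to 1.39, on an axis that starts at 0. The DMSO+FGF2 libraries stand apart on the left plot. On the right their ratios, 1.33 to 1.39, lie slightly above those of DMSO, 1.28 to 1.32, with BGJ398 replicate 3, at 1.38, inside their range.

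Col15a1 and Col18a1 encode collagens XV and XVIII, proteoglycans with interrupted triple helices, and the end domain of collagen XVIII is released as endostatin. Col15a1 was near the limit of detection. Its reads in the 12 libraries numbered 238, and it was at 0.910, 0.835 and 1.09 CPM in DMSO against 0.312, 0.0852 and 0.238 CPM in DMSO+FGF2. In read numbers the DMSO libraries held 18, 23 and 28 and the DMSO+FGF2 libraries 8, 2 and 5. The log2 fold change was −2.12 ± 0.39 (adjusted p = 0.00248), the lowest estimate of the 10 genes and, apart from Lamb1, the one with the widest error. Its nearest genes in pattern were Npnt (0.333), Igf1 (0.346) and Tnc (0.384), at larger distances than for the other members.

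Col18a1 was at 53.7, 59.6 and 55.2 CPM in DMSO and at 47.6, 47.7 and 45.8 CPM in DMSO+FGF2. The groups did not overlap, but the log2 fold change of −0.26 ± 0.09 did not pass the test (adjusted p = 0.0746). With the 3 deviating libraries left out it was −0.27 (adjusted p = 0.0121), and with offsets for effective length −0.15 (adjusted p = 0.521). The BGJ398 libraries, at 57.1, 48.5 and 42.7 CPM, spanned both ranges, and those with BGJ398+FGF2 stood at 45.9, 46.2 and 42.1 CPM. The gene has transcripts from an upstream start and from starts 52602 bases or more downstream. The downstream ones summed to 9.37 ± 0.707 TPM in DMSO and 6.50 ± 0.181 TPM in DMSO+FGF2, with ranges that did not overlap, and the upstream one to 7.08 ± 0.521 and 6.59 ± 0.374 TPM, with ranges that did. In BGJ398 without FGF2 the downstream ones summed to 5.30 to 8.21 TPM and in BGJ398+FGF2 to 4.96 to 8.53 TPM. Both of these groups also lay below every DMSO library, which held 8.71 TPM or more. The upstream share was 41.2% to 46.4% in DMSO, 47.9% to 51.7% in DMSO+FGF2, 48.3% to 59.4% in BGJ398 and 39.7% to 64.1% in BGJ398+FGF2, and these shares were not tested. Slc19a1 lies opposite to Col18a1 in the genome, and 0.426% of the 31-base words of Col18a1 transcripts occur, on either strand, in transcripts of any other gene.

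Lama4 encodes a laminin alpha chain of vessels, muscle and other mesenchymal tissue. It stood at 48.2, 43.1 and 45.5 CPM in DMSO and at 33.5, 36.7 and 31.02 CPM in DMSO+FGF2. With BGJ398 it was at 51.9, 51.6 and 55.5 CPM and with BGJ398+FGF2 at 52.9, 47.1 and 54.2 CPM. The FGF2 libraries lay lowest, and the log2 fold change with FGF2 in DMSO was −0.43 ± 0.08 (adjusted p = 0.00196). Nearest in pattern were Tln2 (0.0793), a talin that links integrins to actin, Fam53b (0.0804) and Pdgfc (0.0844), a growth factor of the platelet-derived family.

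Lamc1, the gamma chain of most laminins, was at 366, 377 and 352 CPM in DMSO and at 263, 268 and 269.8 CPM in DMSO+FGF2. It stood at 354, 397 and 351 CPM in BGJ398 and at 363, 297 and 412 CPM in BGJ398+FGF2. The log2 fold change with FGF2 in DMSO was −0.45 ± 0.09 (adjusted p = 0.00511), and BGJ398+FGF2 replicate 2 came closest to the DMSO+FGF2 range. Nearest in pattern were the teneurin Tenm3 (0.0666), Gpd1l (0.0689) and Gli2 (0.0725), a transcription factor of hedgehog signaling. The ratio of Lamc1 to Lama4 ran from 4.65 to 6.53 in TPM over the 12 libraries. Lama2, the other well-represented alpha chain, was near Lama4 in level, with a Lama4 to Lama2 ratio of 0.695 to 1.08 in TPM summed over all transcripts. The share of short transcripts was not computed for Lama2.

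Lamb1 encodes the beta chain that pairs with Lamc1 in many laminins, and its values split within groups. They were 64.1, 11.6 and 49.3 CPM in DMSO and 56.8, 81.8 and 71.0 CPM in DMSO+FGF2. In BGJ398 they were 74.6, 8.46 and 13.4 CPM and in BGJ398+FGF2 3.58, 64.5 and 8.20 CPM. Of the 12 libraries 5 lay below 20 CPM and 7 above 40 CPM, in 3 groups side by side, and the mean coefficient of variation within groups was 82.8%, against 3.42% to 23.0% for the other 9 genes. The log2 fold change with FGF2 in DMSO was 0.76 ± 0.86 (adjusted p = 0.634), with a 95% interval from −1.10 to 2.61, so that neither a fall nor a rise of the size seen in the other laminin chains could be told from the spread.

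A transcript that the annotation used here does not list varied opposite to Lamb1 between the libraries of DMSO, of BGJ398 and of BGJ398+FGF2. It is 5778 bases long, beside 5784 bases for Lamb1-201, the coding transcript with 78.4% of the Lamb1 reads. It was looked for after the Lamb1 values were seen and carries no gene name here, and whether it shares sequence with Lamb1 was not tested. It stood at 35.4, 76.0 and 40.5 CPM in the DMSO libraries, 65.3, 57.6 and 50.2 CPM in DMSO+FGF2, 0, 72.7 and 62.5 CPM in BGJ398 and 72.5, 13.7 and 67.9 CPM in BGJ398+FGF2. It was high where Lamb1 was low, and at 0 in BGJ398 replicate 1, where Lamb1 was at 74.6 CPM. In DMSO+FGF2 the opposite pattern was not seen, as both were at 50.2 CPM or more in every library. The sum of both was 99.5, 87.6 and 89.8 CPM in the DMSO libraries, 122, 139 and 121 CPM in DMSO+FGF2, 74.6, 81.2 and 75.9 CPM in BGJ398 and 76.1, 78.1 and 76.1 CPM in BGJ398+FGF2. Its within-group coefficient of variation was 5.23%, the lowest among the 111 unlisted transcripts with a mean of at least 5 CPM added to Lamb1 in turn, the next being 13.2%. On that sum the DMSO+FGF2 libraries were the 3 highest of the 12. Because the transcript was chosen by its fit to Lamb1, the sum is a description and was not tested.

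**Figure D4:**
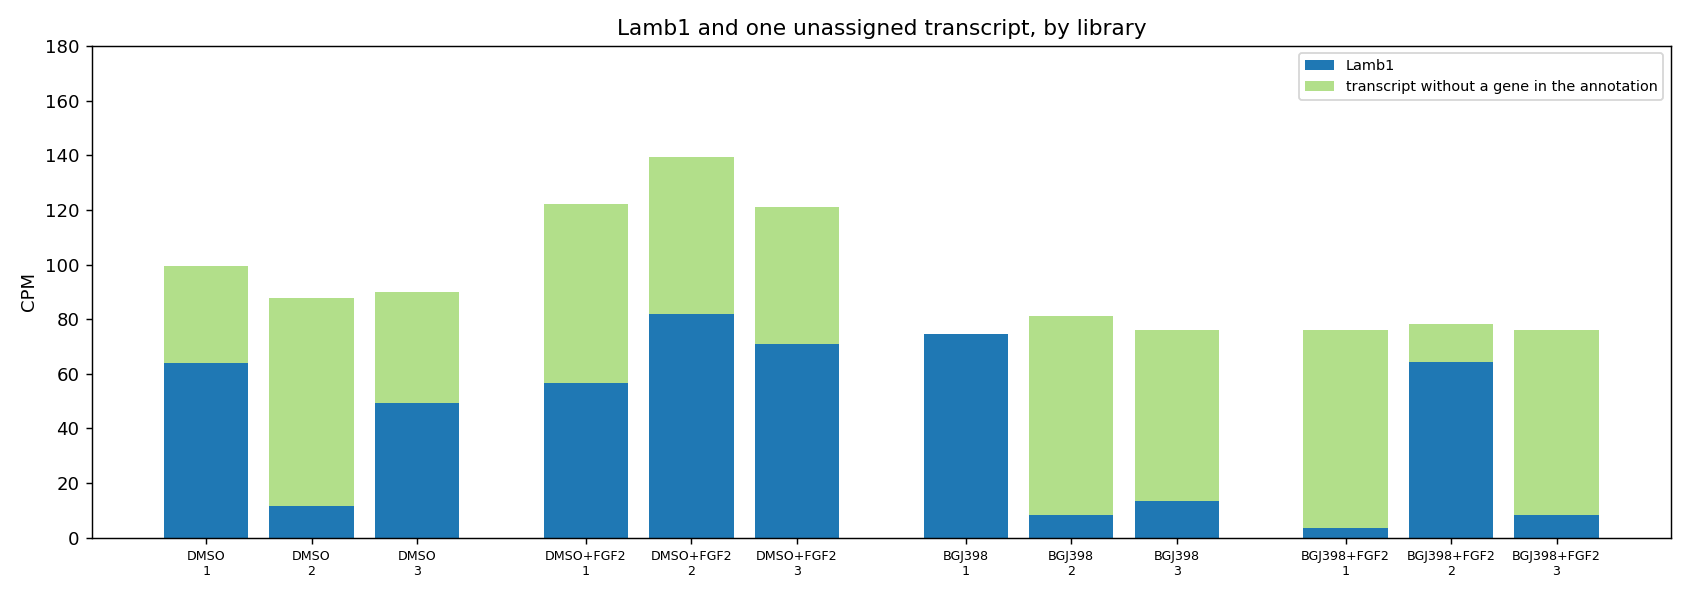
CPM of Lamb1 and of the unlisted transcript of 5778 bases, stacked, for each of the 12 libraries in 4 groups. The parts trade places between libraries of DMSO, BGJ398 and BGJ398+FGF2, while both are high in DMSO+FGF2. The stacks reach 121 to 139 CPM in DMSO+FGF2 and 74.6 to 99.5 CPM elsewhere.

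Nidogens join laminin to collagen IV, and the 2 family members differed. Nid2 stood at 512, 509.9 and 509 CPM in DMSO and at 402, 380.4 and 403 CPM in DMSO+FGF2. With BGJ398 it was at 582, 591 and 555 CPM and with BGJ398+FGF2 at 583, 528 and 604 CPM. The DMSO+FGF2 libraries lay lowest, and in CPM all 6 libraries with BGJ398 lay above all DMSO libraries. In TPM of long coding transcripts BGJ398+FGF2 replicate 2, at 168, lay within the DMSO range of 167 to 176. The share of all genes with the CPM pattern was not computed. The log2 fold change with FGF2 in DMSO was −0.37 ± 0.06 (adjusted p = 0.00058). Of its 31-base sequence words 7.87% also occur in other genes, and it overlaps the opposite gene Rtraf by 437 bases. Nearest in pattern were Rhobtb3 (0.0519), Pxdn (0.0563), the peroxidase that cross-links collagen IV, and Prrx1 (0.0606), a mesenchymal transcription factor.

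Nid1 was at 50.4, 53.7 and 51.1 CPM in DMSO and at 41.6, 48.0 and 46.3 CPM in DMSO+FGF2. It stood at 47.2, 51.1 and 48.3 CPM in BGJ398 and at 52.3, 41.2 and 51.8 CPM in BGJ398+FGF2. DMSO lay above DMSO+FGF2 without overlap, but the log2 fold change of −0.19 ± 0.09 did not pass the test (adjusted p = 0.181). Without the 3 deviating libraries it was −0.24 (adjusted p = 0.0106), and without BGJ398+FGF2 replicate 2 alone −0.19 (adjusted p = 0.0459). The ratio of Nid2 to Nid1 in TPM was 8.79 to 10.4 in DMSO+FGF2, 10.2 to 11.4 in DMSO and 12.8 to 14.7 in the 6 libraries with BGJ398.

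Hspg2 encodes perlecan, the large heparan sulfate proteoglycan that binds growth factors, FGF2 among them. It was at 499, 456 and 407 CPM in DMSO and at 374, 448 and 411 CPM in DMSO+FGF2. In BGJ398 it was at 507, 569 and 438 CPM and in BGJ398+FGF2 at 379.6, 376 and 569.7 CPM. All groups overlapped. The log2 fold change with FGF2 in DMSO was −0.14 ± 0.15 (adjusted p = 0.584), with a 95% interval from −0.46 to 0.17.

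The second comparison asked what FGF2 changed while the receptors were inhibited. In BGJ398+FGF2 against BGJ398, edgeR called 0 of the 10 genes, DESeq2 and limma-voom 0 as well, and 0 had an unadjusted p under 0.05. Over all genes edgeR called 0%, and the members' median log2 fold change was −0.07, beside 0.00049 over all genes. The estimates of Col4a1 and Col4a2 were −0.11 ± 0.08 and −0.10 ± 0.08, with 95% intervals from −0.28 to 0.05 and from −0.28 to 0.08. Those intervals lie above the estimates for FGF2 in DMSO. For Nid2 the interval ran from −0.13 to 0.11, for Lama4 from −0.21 to 0.12 and for Lamc1 from −0.24 to 0.16. Col15a1 was at 1.16, 1.06 and 1.08 CPM in BGJ398 and 1.27, 1.24 and 1.71 CPM in BGJ398+FGF2. These groups did not overlap, but its estimate of 0.36 ± 0.31 did not pass the test (adjusted p = 1 by edgeR).

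The interaction subtracts the FGF2 response without inhibitor from the response with inhibitor, and so tests whether the 2 responses differed. It was called for 4 of the 10 genes, all with positive values, against 4.24% of all genes, 1.99% of them positive and 2.25% negative. Col4a1 had 0.68 ± 0.11 (adjusted p = 0.00247 by edgeR), Col4a2 0.75 ± 0.12 (0.00258), Col15a1 2.48 ± 0.50 (0.0125) and Nid2 0.36 ± 0.08 (0.0194). Lama4, at 0.39 ± 0.11 (adjusted p = 0.0623), and Lamc1, at 0.41 ± 0.13 (0.104), had estimates as large as that of Nid2 and did not pass. Without BGJ398+FGF2 replicate 2 they were 0.45 (adjusted p = 0.0159) and 0.53 (0.00217), and Lama4 also passed without DMSO+FGF2 replicate 2 (0.46, adjusted p = 0.0396). With the 3 deviating libraries left out they were 0.49 (adjusted p = 0.00455) and 0.50 (0.00184). The Nid2 call was lost when any 1 of 6 libraries was left out, DMSO replicates 1, 2 and 3, DMSO+FGF2 replicate 2, BGJ398 replicate 3 and BGJ398+FGF2 replicate 1, with adjusted p of 0.051 to 0.0561.

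BGJ398 without added FGF2 asked what the inhibitor did alone. By edgeR 0 of the 10 genes were called, and by DESeq2 and limma-voom 0, while 2, Nid2 and Lama4, had an unadjusted p under 0.05. Over all genes 0.327% were called, 0.175% lower and 0.151% higher. Nid2 stood 0.18 ± 0.06 higher on the log2 scale (adjusted p = 0.312), with 3 of 3 libraries above the DMSO range, and Lama4 0.22 ± 0.08 higher (adjusted p = 0.398), also with 3 of 3. How many of all genes had 3 of 3 libraries above that range was not computed. With the 3 deviating libraries left out, when 5.79% of all genes were called, 4 of the 10 were, Nid2 at 0.17 (adjusted p = 0.0172) and Lama4 at 0.23 (0.0444) higher, Col18a1 at −0.30 (0.022) and Lamb1 at −1.91 (0.0469) lower. For Lamb1 summed with the unlisted transcript, which was not tested, BGJ398 stood at 74.6 to 81.2 CPM and DMSO at 87.6 to 99.5 CPM.

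With FGF2 present, 6 of the 10 genes were higher with BGJ398 than with DMSO, against 22.2% of all genes called, 10.8% higher and 11.4% lower. They were the same 6 genes that fell with FGF2 in DMSO, and both comparisons use the DMSO+FGF2 libraries. Col4a1 rose by 0.63 ± 0.08 on the log2 scale (adjusted p = 7.65e-05 by edgeR), Col4a2 by 0.66 ± 0.08 (0.000122) and Nid2 by 0.53 ± 0.06 (2.18e-05). Lama4 rose by 0.61 ± 0.08 (0.000107), Lamc1 by 0.42 ± 0.09 (0.00564) and Col15a1 by 2.69 ± 0.38 (0.000262). The libraries of the 2 groups did not overlap for any of the 6. This adds little, because the same values gave the calls, and the share of all genes with that pattern was not computed. The median over the 10 genes was 0.48, beside 0.0046 over all genes. Nid1, at 0.10 ± 0.09, Hspg2, at 0.10 ± 0.15, and Col18a1, at −0.07 ± 0.09, did not pass. Lamb1, at −1.48 ± 0.90 (adjusted p = 0.264), passed without BGJ398+FGF2 replicate 2, at −3.58 (0.0111), which is the library where it was high, and Nid1 passed there too, at 0.20 (0.0464). Without the 3 deviating libraries Lamb1 was at −3.45 (adjusted p = 0.000599) and Nid1 at 0.25 (0.0119). These Lamb1 estimates leave out the unlisted transcript. The untested sum of both was 76.1 to 78.1 CPM in BGJ398+FGF2 and 121 to 139 CPM in DMSO+FGF2.

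**Figure D5:**
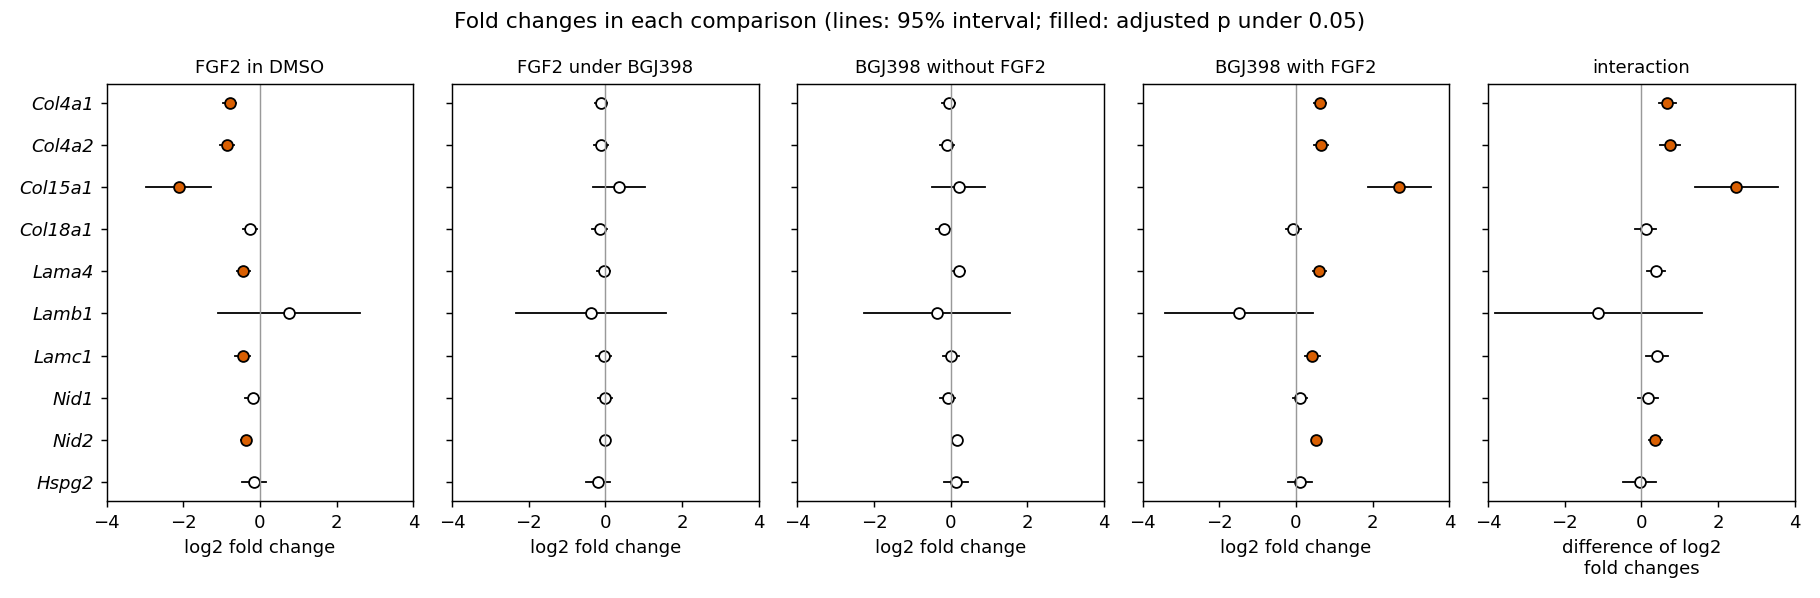
Log2 fold change of each of the 10 genes in the 4 comparisons, and the interaction as a difference of log2 fold changes, with 95% intervals as lines and filled points where the adjusted p is under 0.05. Filled points lie left of 0 for 6 genes with FGF2 in DMSO and right of 0 for the same 6 in BGJ398 with FGF2, and the lines of Lamb1 are the widest in each panel.

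Other genes of the basement membrane, taken from 5 lists, moved in both directions. Their counts stand beside the shares over all genes, 7.57% higher and 5.82% lower with FGF2 in DMSO and 10.8% higher and 11.4% lower in BGJ398 with FGF2. The median log2 fold change with FGF2 in DMSO was −0.20 for the further network chains, −0.08 for the linkers, 0.15 for the receptors, −0.05 for collagen IV modification and 0.10 for proteases and inhibitors, beside −0.0037 over all genes. Of 15 further network chains 11 were tested, and with FGF2 in DMSO 2 fell and 2 rose. Among those that rose was the laminin alpha chain Lama5, by 0.57 ± 0.14 on the log2 scale (adjusted p = 0.0162 by edgeR). Col4a5, a collagen IV chain of the kidney and other tissues that is X-linked, fell by 0.62 ± 0.07 on the log2 scale (adjusted p = 6.98e-05 by edgeR), from 166 to 189 CPM in DMSO to 106 to 119 CPM. Lamb2, an alternative laminin beta chain, fell by 0.36 ± 0.06 (adjusted p = 0.00142), and in TPM summed over all transcripts it exceeded Lamc1 2.52- to 3.34-fold in all 12 libraries. Such sums include short transcripts, whose share was not computed for Lamb2. With BGJ398 in the presence of FGF2, 2 of these chains rose and 3 fell, among them Col4a5 (0.55 ± 0.07), Lamb2 (0.39 ± 0.06) and the alpha chain Lama5 (−0.72 ± 0.14, adjusted p = 0.00287).

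Of 15 linkers and accessory glycoproteins 9 were tested, and 3 fell and 2 rose with FGF2 in DMSO. Npnt, nephronectin, an integrin ligand of basement membranes, fell by 1.90 ± 0.08 (adjusted p = 1.24e-08 by edgeR), from 413 to 445 CPM to 103 to 121 CPM. Sparc, osteonectin, which binds collagens, fell by 0.70 ± 0.05 (8.74e-07), and Hmcn1, the large immunoglobulin-domain protein hemicentin, by 1.74 ± 0.26 (0.000578). In BGJ398 with FGF2 4 genes of this list rose and 2 fell, with Npnt at 1.80 ± 0.08, Sparc at 0.94 ± 0.05 and Hmcn1 at 1.95 ± 0.26.

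Of 13 cell receptors 12 were tested, and with FGF2 in DMSO 4 rose and 1 fell. The one that fell was Itga1, the integrin alpha chain that binds collagen IV, by 1.01 ± 0.09 (adjusted p = 9.19e-06 by edgeR), from 29.3 to 32.6 CPM to 14.2 to 17.5 CPM. The laminin-binding integrin chains Itga6, at 0.46 ± 0.08 (0.00135), and Itga7, at 0.43 ± 0.08 (0.00202), rose. With BGJ398 in the presence of FGF2 2 receptors rose and 4 fell, Itga1 at 0.87 ± 0.09, Itga6 at −0.49 ± 0.08 and Mcam, an adhesion molecule reported to bind laminins, at −0.53 ± 0.09 (adjusted p = 0.000813).

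All 13 genes of collagen IV modification, folding and export were tested, and 4 fell and 1 rose with FGF2 in DMSO. Pxdn, the cross-linking peroxidase, fell by 0.40 ± 0.06 (adjusted p = 0.000467 by edgeR), and Serpinh1, the collagen chaperone HSP47, by 0.45 ± 0.08 (0.00124). P4hb, a subunit of prolyl 4-hydroxylase and a protein disulfide isomerase, rose by 0.33 ± 0.06 (0.00248). With BGJ398 in the presence of FGF2, 4 rose and 2 fell, with Pxdn at 0.47 ± 0.06, the prolyl 3-hydroxylase P3h1 at 0.41 ± 0.06 and Serpinh1 at 0.47 ± 0.08. Of 11 proteases and inhibitors 10 were tested, and 3 rose and 2 fell with FGF2 in DMSO. Mmp2 and Mmp9 encode the gelatinases, which cut collagen IV. Mmp2 rose by 0.32 ± 0.06 (adjusted p = 0.00489) at 731 to 777 CPM in DMSO, whereas Mmp9 fell by 0.70 ± 0.14 (0.0034) at 7.00 to 9.15 CPM, and Adamts1 fell by 0.61 ± 0.08 (0.000153). With BGJ398 in the presence of FGF2, 3 rose, Adamts1 at 0.56 ± 0.08 and the metalloproteinase inhibitors Timp2 at 0.24 ± 0.05 and Timp3 at 0.25 ± 0.06.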

How the data were processed

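The authors quantified transcripts with Salmon (version not given) and named build GRCm39, per the submitters' processing notes. Use of strand is not given in the sources used here. For each of 116178 transcripts the deposited files give expected counts (estimated reads, not scaled), TPM and effective lengths, per the file headers. The deposited effective lengths, in bases, entered only 1 alternative. Expected counts were summed per gene through GENCODE M21 (GRCm38), which matched 114656 transcripts, and rounded. The unmatched 1522 transcripts held 0.499% to 0.641% of reads and stayed out of the tests. TPM were summed per gene for levels only, without a test.

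All 12 libraries were fitted with edgeR 4.0.16 (R 4.3.3): filterByExpr, TMM, 4 group means, 8 residual degrees of freedom, quasi-likelihood tests, 2-sided, adjusted over 12542 genes. The SE of a log2 fold change is its size divided by the square root of F. CPM use TMM-scaled library sizes. Alternatives were DESeq2 1.42.0, limma-voom 3.58.1, other scaling, filters, length offsets, a replicate block, each library left out, and, chosen after seeing the data, 3 libraries left out. Same-numbered libraries deviated together over 0.1 in 2 of 18 pairs, so numbers were not taken as pairs. Replicates were checked for duplicates: the 12 within-group pairs had 3.26 to 25.5 times the variance that counting alone gives.

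The members and lists were chosen with earlier results of these data known. Named genes were the members, up to 3 called genes per list with the smallest p in FGF2 in DMSO and in BGJ398 with FGF2, markers, and the 3 genes nearest in pattern to each called member. One gene that this rule names is not reported here. The procedure was tested on simulated counts. Promoter windows are from RefSeq.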

Additional observations from a re-analysis of the deposited data

Results flagged for a closer look

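For 4 genes the FGF2 change under BGJ398 differed from that in DMSO by edgeR's test of the difference with Benjamini-Hochberg adjustment. The difference on the log2 scale was 0.68 for Col4a1 (adjusted p = 0.00247), 0.75 for Col4a2 (0.00258), 2.48 for Col15a1 (0.0125) and 0.36 for Nid2 (0.0194). Each of the 4 was lower with FGF2 in 3 of 3 DMSO+FGF2 libraries than in every DMSO library, a pattern that 18.4% of all tested genes showed. Those libraries also enter the test of the difference, so the pattern is no separate support. The Nid2 difference passed in 14 of 20 alternatives. Col15a1 rests on 238 reads in 12 libraries.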

How the results depend on the processing

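The 6 genes called with FGF2 in DMSO and in BGJ398 with FGF2 stayed past the threshold, with the same sign, in all 20 alternatives. Leaving out single libraries gave 6 to 7 called genes with FGF2 in DMSO, 6 to 8 in BGJ398 with FGF2, 3 to 6 in the interaction and 0 in the other 2 comparisons, and the cause was not tested. With a replicate block, 6 genes were called for FGF2 in DMSO, 6 for BGJ398 with FGF2, 4 for the interaction and 0 for the others, so the block moved no count. Without the 3 deviating libraries 4 genes were called in BGJ398 without FGF2. DESeq2 called the interaction of 6 genes, adding Lama4 (adjusted p = 0.0281) and Lamc1 (0.0489). Lamc1 also passed there with no filter (0.41, adjusted p = 0.0328) and with length offsets (0.53, 0.00527). DESeq2 also called Col18a1 with FGF2 in DMSO (0.0475), as did edgeR with no filter (0.048), without BGJ398 replicate 1 (0.022) and without BGJ398 replicate 3 (0.037), but with length offsets it was −0.15 (0.521).

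Signs changed in 33 values, none called in either fit. For FGF2 under BGJ398 these were Col4a2 (0.024), Lamc1 (0.046), Nid1 (0.063) and Nid2 (0.047) without the 3 libraries, and Lamc1 (0.080), Nid1 (0.075) and Nid2 (0.015) with length offsets. Length offsets also gave Col15a1 −0.0062 in BGJ398 without FGF2, and in the interaction Col18a1 −0.10 and Hspg2 0.10, the latter 0.12 without the 3 libraries. Over single libraries left out, FGF2 under BGJ398 ranged from −0.083 to 0.015 for Lama4, −2.46 to 1.19 for Lamb1, −0.16 to 0.076 for Lamc1, −0.070 to 0.091 for Nid1 and −0.052 to 0.043 for Nid2. BGJ398 without FGF2 ranged from −1.92 to 0.092 for Lamb1 and −0.049 to 0.042 for Lamc1, BGJ398 with FGF2 from −0.12 to 0.21 for Hspg2, and the interaction from −3.22 to 0.43 for Lamb1 and −0.27 to 0.056 for Hspg2.

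Counts over all genes moved more. FGF2 in DMSO gave 1680 genes, 2611 without the 3 libraries and as few as 1018 without DMSO replicate 3. BGJ398 without FGF2 gave 41, but 153 by DESeq2, 83 with no filter, 11 with length offsets, 21 with the replicate block and 730 without the 3 libraries. BGJ398 with FGF2 gave 2782 and 1825 with length offsets. The interaction gave 532, 825 by DESeq2, 350 with length offsets and 1038 without the 3 libraries. FGF2 under BGJ398 gave 0, 5 by DESeq2, 6 with no filter and 4 without the 3 libraries. Depth limits Col15a1, and the split of Lamb1 limits every statement on that chain.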
